A study of Mus musculus with 8 samples.

Results

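A set of 10 NF-κB genes was followed in mouse tendon stem cells (TSCs): the 5 subunit genes Nfkb1, Nfkb2, Rel, Rela and Relb, the classical inhibitor genes Nfkbia, Nfkbib and Nfkbie, the atypical inhibitor gene Nfkbiz, and Tnfaip3, which encodes A20. They were chosen by symbol, and all 10 were found among the 19301 genes of the expression table. TSCs are progenitor cells of tendon, here primary cells from mouse patellar tendon grown in culture. The 4 HFHG cultures were kept in high-fat, high-glucose medium with added palmitic acid (300 μM), and the 4 LG cultures in low-glucose medium with 5.5 mM glucose and DMSO. RNA was taken after 4 days and sequenced as stranded mRNA libraries. The question was what a diabetes-like supply of sugar and fat does to TSC transcription. The labels name no genetic change in either group, and age, sex and number of the donor mice were not given in the sources used here.

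NF-κB is a family of dimeric transcription factors that share the Rel homology domain (RHD), and the deposited annotation places the 5 subunit genes in the RHD family. In resting cells the dimers are held in the cytoplasm by IκB proteins, and inflammatory signals through the IκB kinase (IKK) lead to IκB breakdown and entry of the dimers into the nucleus. Several members, among them Nfkbia and Tnfaip3, are themselves NF-κB target genes and act as negative feedback. In tendon cells the pathway is known for driving chemokine, cytokine and matrix protease genes after injury.

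Of the 10 genes, 4 were higher in HFHG (Nfkbia, Rel, Nfkbiz and Nfkb2), 4 were lower (Nfkbib, Relb, Rela and Tnfaip3) and 2 did not pass the test (Nfkb1 and Nfkbie). The test was limma on log2(FPKM + 0.1), called at an adjusted p below 0.05 over all 11710 genes tested. FPKM is fragments scaled to the length of the gene and to a read total of the library. The 8 called members, 80.0% of the 10, stood against a background of 64.8% of all genes called, 34.0% higher and 30.8% lower, so a call by itself said little about a member. No member passed a log2 fold change of 1 in size in the limma fit, as 5.33% of all genes did, although 8 had an unadjusted p below 0.05, against 67.8% of all genes. The median log2 fold change was 0.03 over the members and 0.02 over all genes, and the median of its size was 0.34 over the members and 0.25 over all genes. The FPKM of the groups did not overlap for 8 of the 10 members, against 59.2% of all genes tested. Members of one role did not share a direction. Of the 5 subunit genes 2 were higher and 2 lower, and of the 3 classical IκB genes 1 was higher and 1 lower. With 34.0% of all genes higher and 30.8% lower, such splits were near the background and mark no trait of these roles.

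**Figure D1:**
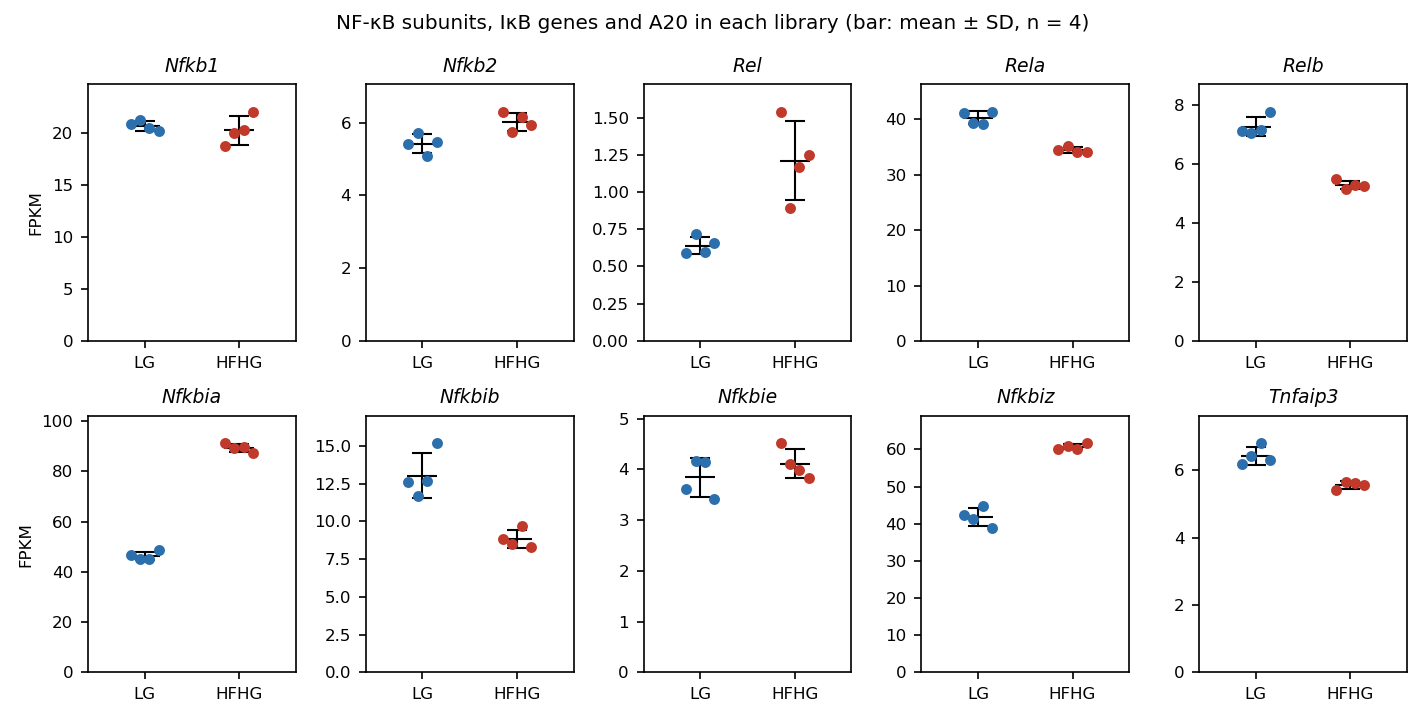
FPKM of the 10 genes in each LG (blue) and HFHG (red) library, 1 panel a gene with its own axis from 0; points are libraries, bars the mean ± SD of 4. Nfkbia, Rel, Nfkbiz and Nfkb2 sat higher in HFHG, Rela, Relb, Nfkbib and Tnfaip3 lower, and the points of Nfkb1 and Nfkbie overlapped between the groups.

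The read totals behind the FPKM, recovered from the FPKM steps, were 34308108 to 37362725 a library, 99.77% to 99.81% of them on the listed genes. Every member had at least 0.5 FPKM in all 8 libraries, from 152 to 8729 reads a library. The groups separated on the first principal component, which held 81% of the variance, and LG replicate 4 stood apart from the other LG libraries on the second, which held 4.18%. Tendon genes were present, with Scx at 2.27 FPKM in HFHG and 1.45 in LG, Tnmd at 1.10 and 0.614 and Col1a1 at 529 and 206. Of the 8 tendon markers 6 were higher (75.0%, against 34.0% of all genes). Mkx alone was lower (12.5%, against 30.8%), at 6.73 FPKM in HFHG and 8.62 in LG. Dcn did not pass the test (605 and 609), and the Scx values overlapped between the groups. Tnmd was low and spread widely in LG, from 0.220 to 0.916 FPKM. By qPCR the study reported lower Scx and Tnmd in HFHG medium, opposite to the values here, and no significant change of Mkx. All 6 lymphocyte markers and all 3 adipocyte markers were below the expression filter. Macrophage markers were present too: 8 of 12 were lower (66.7%, against 30.8% of all genes) and 2 higher (16.7%, against 34.0%) in HFHG, and their summed FPKM was 1760 to 1810 in HFHG and 1920 to 2010 in LG, or 145 to 148 and 189 to 198 without Lyz2. None of the 12 was at 0, and Adgre1, which encodes the macrophage antigen F4/80, had 26.5 ± 1.23 FPKM in HFHG and 38.0 ± 1.28 in LG (SD, n = 4). C1qa, a complement gene and the macrophage marker that fell most, had 18.6 ± 0.549 and 36.6 ± 2.68 FPKM (-0.97, adjusted p = 2.58e-09 by limma). Macrophages also express NF-κB genes, and the part of these cells in the results was not tested. In such bulk RNA, fewer cells of a type and less RNA per cell cannot be told apart.

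The promoters of the members were read for NF-κB binding motifs, because several of the genes are known to answer to NF-κB itself. The windows were the 250 bases before each start site given by RefSeq on GRCm38.p6, and 7 members had a window. The 10-base κB consensus was searched on both strands, and overlapping matches were counted each. The consensus was found in a window of 5 of the 7 members, and in 8.23% of all 27025 genes with a window. The windows of 3 genes are shown, for the IκB gene and the subunit gene that differed most between the media and for an IκB gene that did not pass the test, each 5′ to 3′ on the strand of the gene, with the matches to the consensus in capitals. Nfkbia was read at chr12:55492648-55492897 on the minus strand, Rel at chr11:23770970-23771219 on the minus strand and Nfkbie at chr17:45555450-45555699 on the plus strand.
Nfkbia: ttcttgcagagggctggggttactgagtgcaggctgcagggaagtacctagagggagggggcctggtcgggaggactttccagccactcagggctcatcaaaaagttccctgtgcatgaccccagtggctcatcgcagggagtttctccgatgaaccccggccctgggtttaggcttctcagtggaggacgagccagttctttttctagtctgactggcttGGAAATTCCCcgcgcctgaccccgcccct
Rel: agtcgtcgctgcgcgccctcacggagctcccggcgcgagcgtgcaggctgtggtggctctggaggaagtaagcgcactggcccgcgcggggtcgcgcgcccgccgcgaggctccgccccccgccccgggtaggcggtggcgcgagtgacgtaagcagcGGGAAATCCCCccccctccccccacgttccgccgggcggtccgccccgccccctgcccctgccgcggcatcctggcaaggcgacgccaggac
Nfkbie: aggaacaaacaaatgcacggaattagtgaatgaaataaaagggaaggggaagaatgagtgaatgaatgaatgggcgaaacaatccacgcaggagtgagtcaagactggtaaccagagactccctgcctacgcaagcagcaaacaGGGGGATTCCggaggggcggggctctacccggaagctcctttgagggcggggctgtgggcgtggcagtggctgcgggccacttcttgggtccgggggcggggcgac
The single Nfkbia match, GGAAATTCCC, began 29 bases before the start site. The Rel window held a pair of overlapping matches, GGGAAATCCC and GGAAATCCCC, from 92 bases before the start. The Nfkbie match, GGGGGATTCC, began 106 bases before the start.

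Of the other members, Tnfaip3 held GGGACACCCC and GGAAATCCCC in one of its windows, 125 and 12 bases before that start. Nfkb2 held 5 matches over 3 windows, among them GGGACTTTCC, the letters of the site in the immunoglobulin kappa enhancer from which the factor has its name. No match was found in the windows of Rela and Nfkbib, which says only that these letters are not in those windows. Nfkb1, Relb and Nfkbiz had no window in the table. The shares called were close with and without a match: of the 1005 tested genes with a consensus match 34.9% were higher and 30.3% lower, and of the 8371 without one 33.9% were higher and 30.8% lower. A match is a description of letters and not of binding.

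Rela and Nfkb1, the partners of the classical heterodimer, were the most abundant subunit genes per length. Rela (chr19:5637483-5648130, plus strand), which encodes the transactivating subunit p65, had 34.5, 35.1, 34.1 and 34.1 FPKM in HFHG replicates 1 to 4 and 41.2, 39.4, 39.1 and 41.3 in LG replicates 1 to 4. All HFHG values lay below all LG values, and the HFHG libraries were closer to each other than the LG libraries. The means were 34.4 ± 0.487 and 40.3 ± 1.17 FPKM (SD, n = 4), a log2 fold change of -0.22 (SE 0.0302, adjusted p = 2.94e-05 by limma). The fall was small, and 53.7% of all genes tested changed by more.

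Nfkb1 (chr3:135584655-135691547, minus strand), which encodes the p105 precursor of p50, had 18.73, 20.03, 20.30 and 22.05 FPKM in HFHG and 20.88, 21.31, 20.46 and 20.24 in LG. The HFHG values spread on both sides of the LG values, so the groups overlapped. The log2 fold change was -0.03 with a 95% interval from -0.13 to 0.07 (adjusted p = 0.547 by limma). The gene overlaps the annotated gene Gm43430. The direction turned when HFHG replicate 1, the lowest library, was left out (0.004, adjusted p = 0.945 by limma).

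Rel, which encodes c-Rel, a subunit best known from lymphoid and myeloid cells, rose most among the subunit genes (chr11:23736847-23770970, minus strand). It had 1.54, 0.893, 1.17 and 1.25 FPKM in HFHG and 0.594, 0.716, 0.597 and 0.655 in LG. Every HFHG library was above every LG library, but the HFHG libraries differed much among themselves, with replicate 1 highest and replicate 2 lowest. The mean was 1.21 ± 0.266 FPKM in HFHG and 0.640 ± 0.0576 in LG (SD, n = 4), 1.89-fold higher, with a log2 fold change of 0.81 (SE 0.148, adjusted p = 0.000407 by limma). It was also the scarcest member, and its log2 fold change shrank to 0.42 with a pseudocount of 1 and was 0.90 with voom on the recovered reads. All 6 lymphocyte markers summed to between 0.0934 and 0.269 FPKM in the 8 libraries, while 8 of the 12 macrophage markers were lower and 2 higher in HFHG, and the part of either cell type in the Rel values was not tested.

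Relb and Nfkb2 encode the subunits of the alternative NF-κB pathway, and they moved in opposite directions. Relb (chr7:19606217-19629438, minus strand) had 5.47, 5.13, 5.30 and 5.24 FPKM in HFHG and 7.12, 7.03, 7.14 and 7.75 in LG. The groups were far apart compared with their spread, and LG replicate 4 was the highest library. The means of 5.28 ± 0.141 and 7.26 ± 0.333 FPKM (SD, n = 4) gave a log2 fold change of -0.45 (SE 0.0516, adjusted p = 6.85e-06 by limma), and -0.42 without LG replicate 4.

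Nfkb2 (chr19:46304320-46312385, plus strand), which encodes the p100 precursor of p52, had 6.293, 5.732, 6.163 and 5.926 FPKM in HFHG and 5.403, 5.726, 5.087 and 5.463 in LG. The groups did not overlap, but HFHG replicate 2 and LG replicate 2 were nearly equal. The means were 6.03 ± 0.249 and 5.42 ± 0.263 FPKM (SD, n = 4), a log2 fold change of 0.15 (SE 0.0559, adjusted p = 0.031 by limma). This was the least certain of the calls. It was lost without HFHG replicate 1 (0.13, adjusted p = 0.086), HFHG replicate 3 (0.14, 0.0754), LG replicate 1 (0.15, 0.0585) or LG replicate 3 (0.12, 0.0923), and with median-ratio scaling (0.12, 0.0848) or quantile normalization (0.08, 0.212), all by limma. The gene lies over Psd on the opposite strand, and whether the counting used strand was not stated. It also overlaps the annotated gene AC114539.1.

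Nfkbia changed most of all members. It encodes IκBα, the inhibitor that is broken down and made again in each round of classical NF-κB signalling, and lies at chr12:55489410-55492647 on the minus strand. It had 91.1, 89.2, 89.7 and 87.3 FPKM in HFHG and 46.9, 45.1, 45.3 and 48.5 in LG. The groups were separated by a gap many times their spread. The means were 89.3 ± 1.61 and 46.4 ± 1.61 FPKM (SD, n = 4), 1.92-fold higher in HFHG, with a log2 fold change of 0.94 (SE 0.0299, adjusted p = 3.65e-11 by limma). Only 6.08% of all genes tested changed by more in either direction. Over 18 other settings of the analysis, leaving out each library among them, its log2 fold change stayed between 0.906 and 1.002, the highest with FPKM rescaled to the same sum.

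The other classical inhibitors did not follow Nfkbia. Nfkbib (chr7:28758251-28767512, minus strand), which encodes IκBβ, an inhibitor that binds much the same dimers, had 8.854, 8.498, 9.674 and 8.306 FPKM in HFHG and 12.65, 11.69, 12.68 and 15.17 in LG. All HFHG values lay below the LG values, and LG replicate 4 was again the highest. The means were 8.83 ± 0.605 and 13.0 ± 1.49 FPKM (SD, n = 4), a log2 fold change of -0.55 (SE 0.0744, adjusted p = 2.88e-05 by limma), and -0.48 without LG replicate 4. The gene lies over Sirt2 and Ccer2 on the opposite strand, with the same doubt about strand as for Nfkb2.

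Nfkbie (chr17:45555703-45563169, plus strand), which encodes IκBε, a further inhibitor that NF-κB induces, had 4.51, 4.12, 3.99 and 3.84 FPKM in HFHG and 3.62, 4.17, 4.16 and 3.42 in LG. The groups overlapped. The log2 fold change was 0.10 with a 95% interval from -0.07 to 0.27 (adjusted p = 0.296 by limma).

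**Figure D2:**
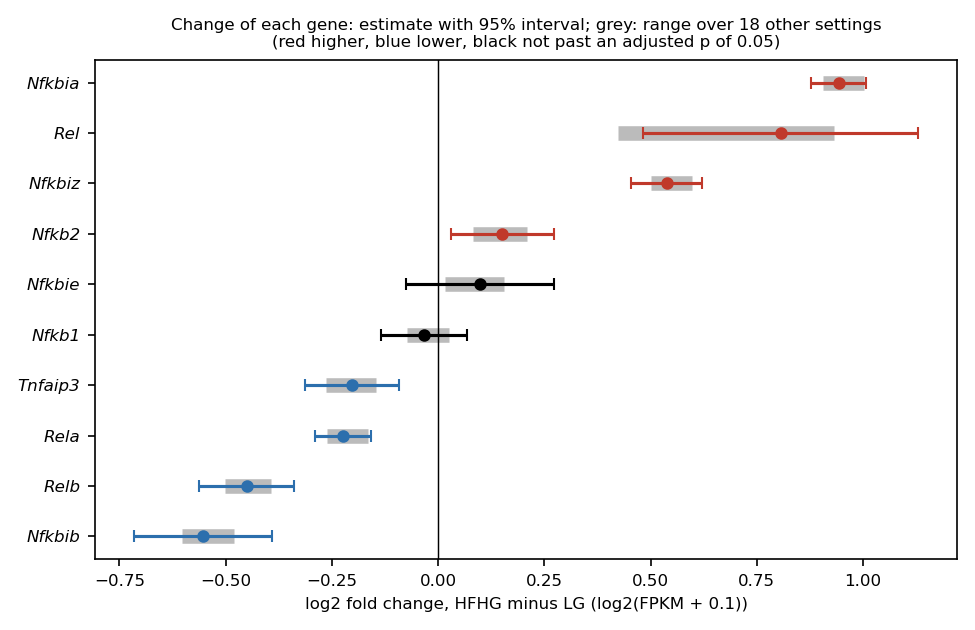
Log2 fold change (HFHG minus LG, on log2(FPKM + 0.1)) of each gene with its 95% interval, red for higher, blue for lower and black for not past the test; grey bars show the range over 18 other settings (17 for Rel). Nfkbia stood at 0.94 with a narrow interval, Rel at 0.81 with a wide one, and only the grey bar of Nfkb1 crossed 0.

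Nfkbiz and Tnfaip3, both known as genes that inflammatory signals switch on, moved in opposite directions. Nfkbiz (chr16:55811375-55838899, minus strand) encodes IκBζ, a nuclear protein that works with p50 and is needed for a set of secondary inflammatory genes. It had 60.1, 61.0, 60.2 and 61.6 FPKM in HFHG and 42.5, 41.2, 44.7 and 39.0 in LG. The HFHG libraries were nearly equal and all above the LG libraries. The means were 60.7 ± 0.701 and 41.8 ± 2.39 FPKM (SD, n = 4), 1.45-fold higher, with a log2 fold change of 0.54 (SE 0.0378, adjusted p = 6.78e-08 by limma).

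Tnfaip3 (chr10:19000910-19015657, minus strand) encodes A20, the ubiquitin-editing enzyme that shuts down signalling upstream of IKK. It had 5.41, 5.67, 5.63 and 5.58 FPKM in HFHG and 6.19, 6.43, 6.80 and 6.30 in LG. The groups did not overlap and all HFHG values were lower. The means were 5.57 ± 0.116 and 6.43 ± 0.263 FPKM (SD, n = 4), a log2 fold change of -0.20 (SE 0.0505, adjusted p = 0.00348 by limma). The fall was small, since 57.2% of all genes tested changed by more, and its adjusted p stayed between 0.000543 and 0.0349 over 18 other settings.

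Ratios within a library do not depend on how the library was scaled, and they are given as a description with no test. The summed FPKM of Nfkbia, Nfkbib and Nfkbie over that of the 5 subunit genes was 1.57, 1.52, 1.54 and 1.45 in HFHG and 0.839, 0.821, 0.859 and 0.890 in LG. The inhibitor transcripts thus exceeded the subunit transcripts per length in every HFHG library and stayed below them in every LG library. Nfkbia made up 87.3% ± 0.445 of the classical inhibitor FPKM in HFHG and 73.4% ± 0.900 in LG (SD, n = 4). The level of the ratio depends on gene length: in recovered reads, not divided by length, it was 0.585 in HFHG and 0.356 in LG, and with the longest GENCODE transcript as the length, a choice made after seeing the data, it was 1.20 and 0.677. HFHG stayed above LG on all 3 scales.

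The ratio of Nfkbia to Rela, the inhibitor and the subunit it holds, was 2.64, 2.54, 2.63 and 2.56 in HFHG and 1.14, 1.14, 1.16 and 1.17 in LG. The 2 feedback genes also parted: the ratio of Nfkbia to Tnfaip3 was 16.0 ± 0.557 in HFHG and 7.23 ± 0.484 in LG (SD, n = 4). Neither ratio overlapped between the groups. This follows from Nfkbia being higher and Rela and Tnfaip3 lower in every HFHG library, and adds no further support. These 2 ratios were not among those planned.

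**Figure D3:**
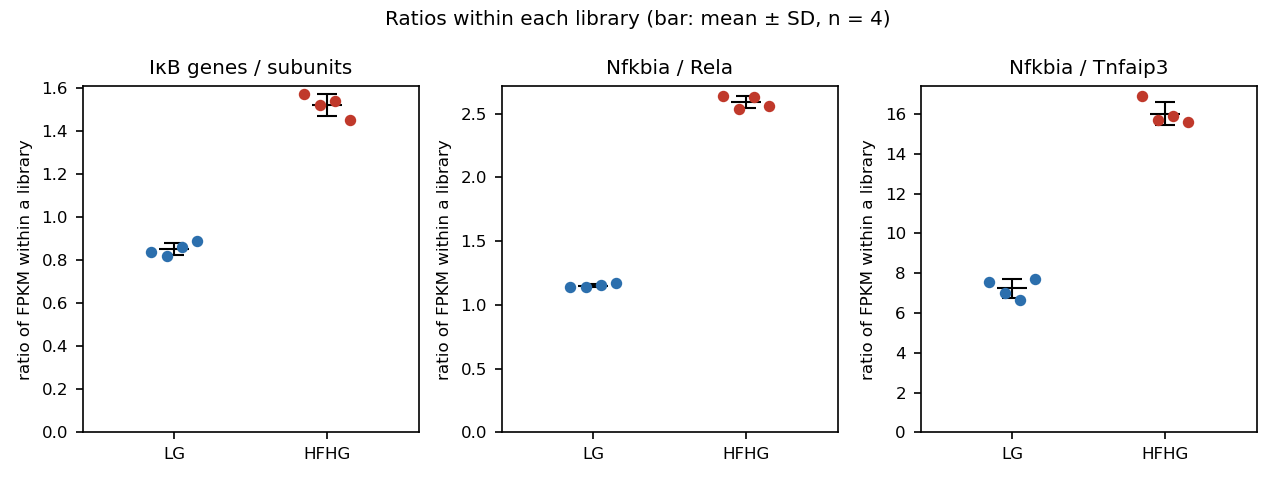
Ratios of FPKM within each LG (blue) and HFHG (red) library, axes from 0; points are libraries, bars the mean ± SD of 4. The classical IκB genes over the 5 subunit genes, Nfkbia over Rela and Nfkbia over Tnfaip3 were each higher in all 4 HFHG libraries than in any LG library.

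Among the subunit genes, Rela held 51.2% ± 1.20 of the summed FPKM in HFHG and 54.2% ± 0.792 in LG, and Nfkb1 30.1% ± 1.64 and 27.9% ± 0.813 (SD, n = 4). Rel rose from 0.862% ± 0.0758 of the sum in LG to 1.80% ± 0.401 in HFHG, with no overlap between the libraries. Relb held 7.86% ± 0.269 in HFHG and 9.77% ± 0.385 in LG, and Nfkb2 8.97% ± 0.432 and 7.29% ± 0.298. Relb was thus above Nfkb2 in every LG library, and Nfkb2 above Relb in every HFHG library, on the deposited scale. These shares depend on gene length too. With the longest GENCODE transcripts as lengths, Rela held 42.7% in HFHG and 45.7% in LG, and Nfkb2 20.2% and 16.6%.

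In order of FPKM per gene, HFHG cells held Nfkbia, Nfkbiz, Rela, Nfkb1, Nfkbib, Nfkb2, Tnfaip3, Relb, Nfkbie and Rel. LG cells held the same first 5, then Relb, Tnfaip3, Nfkb2, Nfkbie and Rel. Nfkbiz and Rela overlapped in LG, with 39.0 to 44.7 and 39.1 to 41.3 FPKM, and so did not differ there beyond their spread. In HFHG the same held for Tnfaip3 and Relb, with 5.41 to 5.67 and 5.13 to 5.47 FPKM. These orders rest on the gene lengths behind the deposited values. For Nfkb2 that length was 10990 bases, 2.86 times the longest GENCODE transcript of 3846 bases. It is longer than the span of the gene in GENCODE, so which reads were counted for Nfkb2 is uncertain. For Relb the length was 6167 bases, 1.88 times the 3273 bases of GENCODE. With the GENCODE lengths, and if all its reads are its own, Nfkb2 would stand at 17.2 in HFHG and 15.5 in LG. Relb would stand at 9.96 and 13.7. The place of both genes is thus uncertain, and Nfkb2 would lie above Relb in both media. Changes between the media within a gene are not touched by its length. For Nfkb2, however, the change also depends on which reads were counted.

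For the shape within the groups, genes among the 3 most like Nfkbia over the 8 libraries, after the mean of each group was removed, were Ndufa11 (Pearson r = 0.983) and Rabac1 (0.979). For Tnfaip3 the 3 were Spink5 (0.963), Nsa2 (0.956) and Olfml2b (0.955). These are among the highest of 10671 genes on few libraries and are given as a description. A like gene need not share the change between the media: Olfml2b was higher in HFHG (0.57, adjusted p = 5.94e-06 by limma) where Tnfaip3 was lower.

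Upstream of the members, the genes from receptor adaptors to IKK were mixed. Of 24, 23 were tested, 7 were higher, 8 lower and 8 did not pass the test, with a median log2 fold change of -0.05. This share called, 65.2%, was near the 64.8% of all genes. The split turned to 10 higher and 5 lower when FPKM were rescaled to the same sum. That rescaling also moved all genes, from 3983 higher and 3609 lower to 4682 and 3002. Traf1 was below the filter. Map3k14, which encodes the NIK kinase of the alternative pathway, had 3.27 ± 0.367 FPKM in HFHG and 1.97 ± 0.241 in LG (0.71, adjusted p = 6.99e-05 by limma). Map3k7, which encodes TAK1, the kinase that activates IKK, had 22.2 ± 0.537 and 14.9 ± 0.660 FPKM (0.58, 5.84e-08). Birc2, a ubiquitin ligase of the TNF receptor complex, was also higher (0.39, 0.000364). Irak2, a kinase of the Toll-like and interleukin-1 receptors, was lower (-0.46, 4e-06), as was the TNF receptor adaptor Tradd (-0.38, 6.89e-06). The IKK subunits themselves, chosen for naming after their values were seen, went apart: Chuk rose (0.32, 1.28e-05), Ikbkb fell (-0.18, 0.00726), and Ikbkg stood at -0.05 (0.300).

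Of 17 other regulators of the pathway, 16 were tested, 6 were higher, 4 lower and 6 did not pass the test (median -0.03), and Tnip3 was below the filter. The share called, 62.5%, was near the 64.8% of all genes, with 37.5% higher against 34.0% and 25.0% lower against 30.8%. Pdlim2, whose product leads nuclear p65 to breakdown, rose most, with 28.2 ± 1.24 FPKM in HFHG and 11.9 ± 0.760 in LG (1.25, adjusted p = 3.05e-10 by limma). Zc3h12a, which encodes the inflammatory RNA nuclease Regnase-1, was higher too (0.56, 4.99e-08). Commd1, another factor in p65 turnover, was lower (-0.56, 7.34e-06), as were Bcl3, an atypical IκB that binds p50 and p52 (-0.55, 4.14e-07), and Rnf11, a partner of A20 (-0.36, 1.04e-08). Nfkbiz and Bcl3, both atypical IκB genes, therefore changed in opposite directions.

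Downstream, more target genes were higher than lower. Of 32 known NF-κB target genes 31 were tested, and 19 were higher (61.3%, against 34.0% of all genes). Another 7 were lower (22.6%, against 30.8%) and 5 did not pass the test, with a median log2 fold change of 0.12 against 0.02. The list was chosen with earlier results of these data known, so its excess is a description and not independent support. With median-ratio scaling 16 were higher and 9 lower, where 3548 of all genes were higher and 4053 lower. Il1b, a cytokine typical of macrophages, had only 1.73 ± 0.354 FPKM in HFHG and 0.459 ± 0.0795 in LG (1.70, adjusted p = 6.26e-07 by limma). Gadd45b, a stress-response gene, had 57.6 ± 2.95 and 20.6 ± 0.628 FPKM (1.48, 7.65e-12). The adhesion molecule Vcam1 (0.86, 1.1e-11) and the neutrophil chemokine Cxcl5 (0.82, 6.68e-11) were higher as well. Mmp13, a collagenase, was lower, with 1420 ± 21.5 FPKM in HFHG and 2650 ± 73.9 in LG (-0.90, 5.89e-12). Birc3 and Traf1 are in both this list and the adaptor list.

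**Figure D4:**
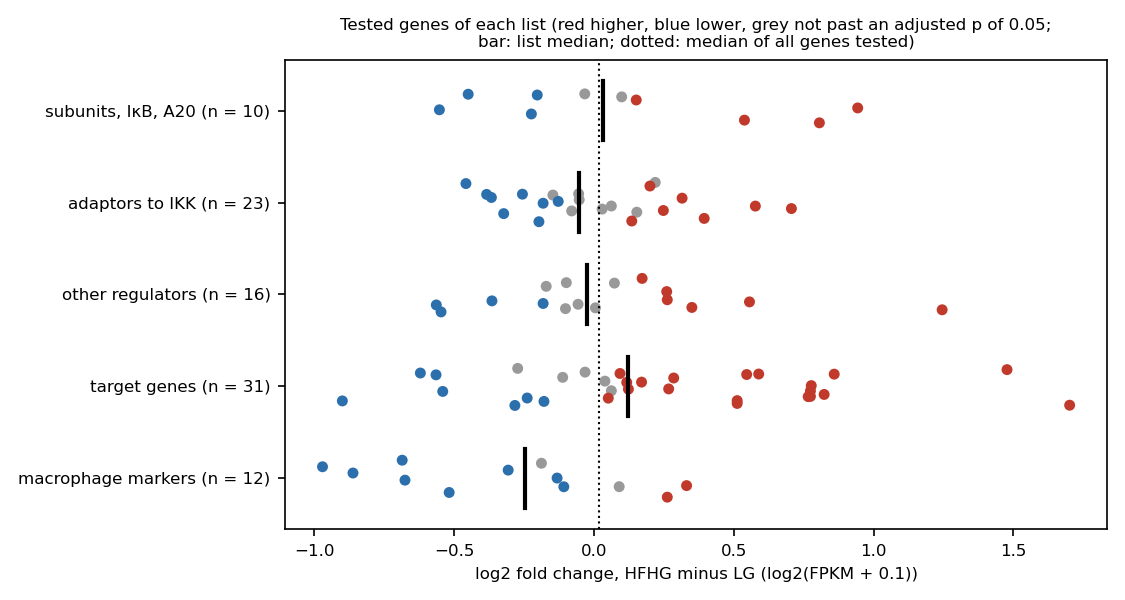
Log2 fold change (HFHG minus LG, on log2(FPKM + 0.1)) of the tested genes of 5 lists, red for higher, blue for lower and grey for not past an adjusted p of 0.05; black bars mark list medians and the dotted line the median of all genes tested, 0.02. The medians were 0.03 for the members, -0.05 for adaptors to IKK, -0.03 for other regulators, 0.12 for target genes and -0.25 for macrophage markers.

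A wider view came from the NF-kappa B pathway as the deposited KEGG annotation defines it. It held 99 genes, of which 83 were tested, 30 higher, 29 lower and 24 not past the test, and its share called was 71.1% against 64.8% of all genes, with 36.1% higher against 34.0% and 34.9% lower against 30.8%. Its median log2 fold change was -0.03 against 0.02 over all genes. Without the members 28 of 77 were higher and 26 lower, nearly even numbers. Il1b and Gadd45b again changed most, with the chemokine gene Cxcl3 (1.40, adjusted p = 3e-11 by limma), Tnfsf11, which encodes RANKL (1.36, 1.9e-06), and Bcl2a1a (-1.34, 9.88e-05), whose near-identical copies make its reads uncertain.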

How the data were processed

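RNA from 8 cultures, 4 HFHG and 4 LG, was sequenced, and replicates were grouped by their labels. The authors deposited one table of FPKM with gene annotation. The submitters' processing notes name HISAT2 2.1.0 and the mm10 genome, whereas the counting program, its strand setting and the gene models were not given in the sources used here. Doses and days come from the study's methods. Whole reads were recovered from the FPKM steps for 19301 of 19301 genes, as the smallest whole numbers in the ratio of each gene's values. All (100%) were whole within 1e-06, a bound that was looser for the highest genes. The gene length behind them came out whole for 18996 genes, and for the others the reads may be too low. The read totals behind the FPKM were 34308108 to 37362725 a library.

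FPKM are not counts, so genes with at least 0.5 FPKM in 4 libraries were tested on log2(FPKM + 0.1) with limma 3.58.1 in R 4.3.3 (eBayes with an intensity trend, no covariate), two-sided, with Benjamini-Hochberg adjustment over all genes tested. This scale understates the change of low genes. The script was tested on simulated data. Alternatives were other pseudocounts (1 and 0.01), filters and scalings, robust eBayes, voom on recovered reads, a replicate block and each library left out. The sources do not say whether replicates came from separate animals, so p-values measure the spread between cultures. No 2 libraries of a group agreed within sampling noise. Locations are GRCm38 (GENCODE M21), promoters RefSeq on GRCm38.p6.

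The members and lists were chosen with earlier results of these data known. Named genes were all members and, of each pathway list, up to 5 called genes with the largest change, list members below the filter by name, and the 3 genes most like Nfkbia and Tnfaip3, of which 1 is not reported here. Cell type markers were named where a member was set beside them, and those in the text were chosen after their values were seen. Of the endothelial markers Tek passed the filter (0.47, adjusted p = 0.00576 by limma). Of the muscle markers Acta1 did (-1.82, 5.23e-07). Of the stem cell surface markers 4 of 5 were higher (80.0%, against 34.0% of all genes) and 1 lower (20.0%, against 30.8%).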

Additional observations from a re-analysis of the deposited data

Results flagged for a closer look

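Relb in LG replicate 4, at 7.75 FPKM, lay further from its group than chance usually gives: its gap to the nearest LG library took 0.845 of the range of the group, above Dixon's 95% critical value for 4 samples. It was 1 of 20 groups of 4 checked, and chance flags about 1 in 20. The same library was the highest LG library for Nfkbib (15.2 FPKM) and stood apart on the second principal component. Without it Relb remained lower in HFHG (-0.42, adjusted p = 1.94e-05 by limma), as did Nfkbib (-0.48, 2.79e-05).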

How the results depend on the processing

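Of the log2 fold changes of the 10 members recomputed over the other settings, 170 kept their direction and side of the threshold, 7 lost the call and 2 reversed. All 7 losses were of Nfkb2, which was called in 11 of 18 settings. Both reversals were of Nfkb1, never called, at 0.026 when FPKM were rescaled to the same sum (adjusted p = 0.676 by limma) and 0.004 without HFHG replicate 1 (0.945). The cause was not tested. The other 7 called members were called in every setting in which they were tested. Rel could not be tested at a filter of 1 FPKM. Among the adaptors to IKK the lower count went from 8 to 5 with rescaling to the same sum, which moved the median of all genes from 0.017 to 0.075. The ratio of IκB to subunit genes moved from 1.52 to 0.585 (HFHG) and from 0.852 to 0.356 (LG) in recovered reads, and to 1.20 and 0.677 with GENCODE lengths, an alternative chosen after seeing the data, since it depends on length.

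No pairing by replicate number was visible: the deviations of same-numbered libraries correlated at -0.021, -0.01, -0.006 and -0.074. This cannot show that the cultures were unpaired, and the sources do not say. With the replicate block 3841 genes were higher and 3501 lower, against 3983 and 3609 without it, and Nfkb2 had an adjusted p of 0.0682 by limma. The block changed no other member's call. Rel had the fewest reads of the members, from 152 a library, and a coefficient of variation of 21.9% in HFHG and 8.99% in LG.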
